A study of Mus musculus with 416 samples.

Results

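Fast excitatory transmission in the brain runs largely through glutamate-gated ion channels of the AMPA and kainate families, and the subunits of these receptors are encoded by 9 genes. These genes, Gria1 to Gria4 for AMPA receptors and Grik1 to Grik5 for kainate receptors, were taken from a table of gene counts by matching its Ensembl IDs to gene symbols. All 9 were found among 46517 rows of the table, and all 9 were among the 22968 genes with enough counts to be tested. The table holds 416 striatum libraries from drug-naïve mice of the strain J:DO, the Diversity Outbred stock, in which each animal carries its own mixture of several founder genomes. Labels give a sex and a breeding generation: 76, 60 and 72 libraries were labelled female and 74, 59 and 75 were labelled male in generations 21, 22 and 23. No library was treated, and the labels used here give no age, date or batch, so generation and any batch that ran with it cannot be told apart. Titles give each library a number of its own, and whether some animals were littermates is not stated.

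AMPA receptors are assembled from several subunits and carry most of the fast current at excitatory synapses. Kainate receptors are built the same way. The products of Grik1 to Grik3 can form channels by themselves, while those of Grik4 and Grik5 need one of the others as a partner. In the striatum, axons from cortex and thalamus release glutamate onto spiny projection neurons, the inhibitory output cells of this region. The subunit Gria2 has a particular role, because RNA editing of one glutamine codon in its pore loop to an arginine codon keeps calcium out of receptors that contain it. The same codon is edited in part of the Grik1 and Grik2 transcripts.

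The stretch around that codon shows how alike the 9 coding sequences are where the ion channel is built. Each line gives 45 bases before the codon, the codon itself in capitals and 3 bases after it, 5′ to 3′ on the coding strand.
Gria1: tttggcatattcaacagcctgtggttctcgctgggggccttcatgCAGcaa
Gria2: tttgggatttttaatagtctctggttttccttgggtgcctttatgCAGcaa
Gria3: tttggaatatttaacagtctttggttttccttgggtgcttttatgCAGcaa
Gria4: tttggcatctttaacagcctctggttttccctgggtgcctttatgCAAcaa
Grik1: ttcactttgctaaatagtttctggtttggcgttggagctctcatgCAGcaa
Grik2: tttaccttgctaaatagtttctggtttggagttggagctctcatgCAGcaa
Grik3: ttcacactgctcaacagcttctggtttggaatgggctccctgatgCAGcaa
Grik4: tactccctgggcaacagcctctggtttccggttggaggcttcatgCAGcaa
Grik5: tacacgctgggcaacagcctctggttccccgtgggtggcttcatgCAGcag
The sequences are from GENCODE release M21 and lie within a single coding exon each. On GRCm38 they are at chr11:57243049-57243099 in exon 11 of Gria1 (plus strand), chr3:80706908-80706958 in exon 11 of Gria2 (minus), chrX:41610220-41610270 in exon 11 of Gria3 (plus) and chr9:4464134-4464184 in exon 12 of Gria4 (minus). The kainate stretches are at chr16:87940539-87940589 in exon 12 of Grik1 (minus), chr10:49244326-49244376 in exon 13 of Grik2 (minus), chr4:125691162-125691212 in exon 12 of Grik3 (plus), chr9:42547620-42547670 in exon 16 of Grik4 (minus) and chr7:25022494-25022544 in exon 15 of Grik5 (minus). The codon is CAG in 8 of the 9 genes and CAA in Gria4. Grik1 and Grik2 were identical at 48 of 51 bases (94.1%), Gria2 and Gria3 at 46 (90.2%) and Grik4 and Grik5 at 44, while the least alike pair, Gria1 and Grik1, shared 30 (58.8%). How the counting treated reads that match more than 1 of these genes is not given in the sources used here, and its effect on the estimated counts was not tested. Gene counts do not record the base at the edited position, and editing was not analysed here.

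Total counts ran from 20331737 to 77458200 per library with a median of 43516282. The 13 markers of spiny projection neurons that were listed were above 0 in all 416 libraries, with a summed level of 9196, 8992 and 8337 CPM at the median of generations 21, 22 and 23, so the labelled tissue matched its defining genes in most libraries. CPM is each count scaled to a common library total, after adjustment for composition by TMM. The lowest sum was 367.4 CPM, in a library of generation 21. By a rule on total count and on correlation with the others, 29 libraries stood apart (14, 6 and 9 in generations 21, 22 and 23). Another 29, partly the same, had a level of Xist, the RNA of the inactive X chromosome, on the other side of 100 CPM from their labelled sex. Many results are also given without such libraries. Mean shares, spreads, correlations within a generation, variance held by marker scores and the genes most like each member are given with all libraries kept.

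Gria2 and Gria1 lay at the 99.7th and 99.1st percentile of mean level among the genes tested, and the other AMPA genes also lay high, at 97.4 for Gria3 and 90.7 for Gria4. Gria2 was at 214.6, 1022 and 1297 CPM in the lowest, median and highest library. Gria1 was at 92.4, 516.2 and 1019 CPM. Gria2 encodes the subunit that controls calcium entry, and Gria1 the subunit best known for its recruitment to synapses in plasticity. Gria3, which is encoded on the X chromosome, was at 121.99, 252.3 and 314.5 CPM, and Gria4, a subunit known for fast gating in interneurons, was at 52.5, 94.9 and 198.7 CPM. Single libraries set the ends of these ranges: the interquartile range was 483.3 to 542.4 CPM for Gria1 and 960.5 to 1077 CPM for Gria2.

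Among the kainate genes, Grik2, Grik5 and Grik3 lay at the 97.3rd, 95.2nd and 94.2nd percentile of level, and Grik4 and Grik1 at the 56.9th and 42.97th. Grik2, a channel-forming subunit, was at 96.4, 247.5 and 314.4 CPM in the lowest, median and highest library. Grik5, a partner subunit, was at 68.9, 158.98 and 243.4 CPM, and Grik3, a channel-forming subunit with low affinity for glutamate, was at 39.5, 139.4 and 183.7 CPM. The other partner subunit, Grik4, was at 5.96, 9.66 and 53.8 CPM. Grik1, the remaining channel-forming subunit, was at 1.21, 3.77 and 19.2 CPM. These last genes were also the most variable, with coefficients of variation of 39.98% for Grik4 and 46.7% for Grik1, against 10.3% to 15.2% for the other members.

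**Figure D1:**
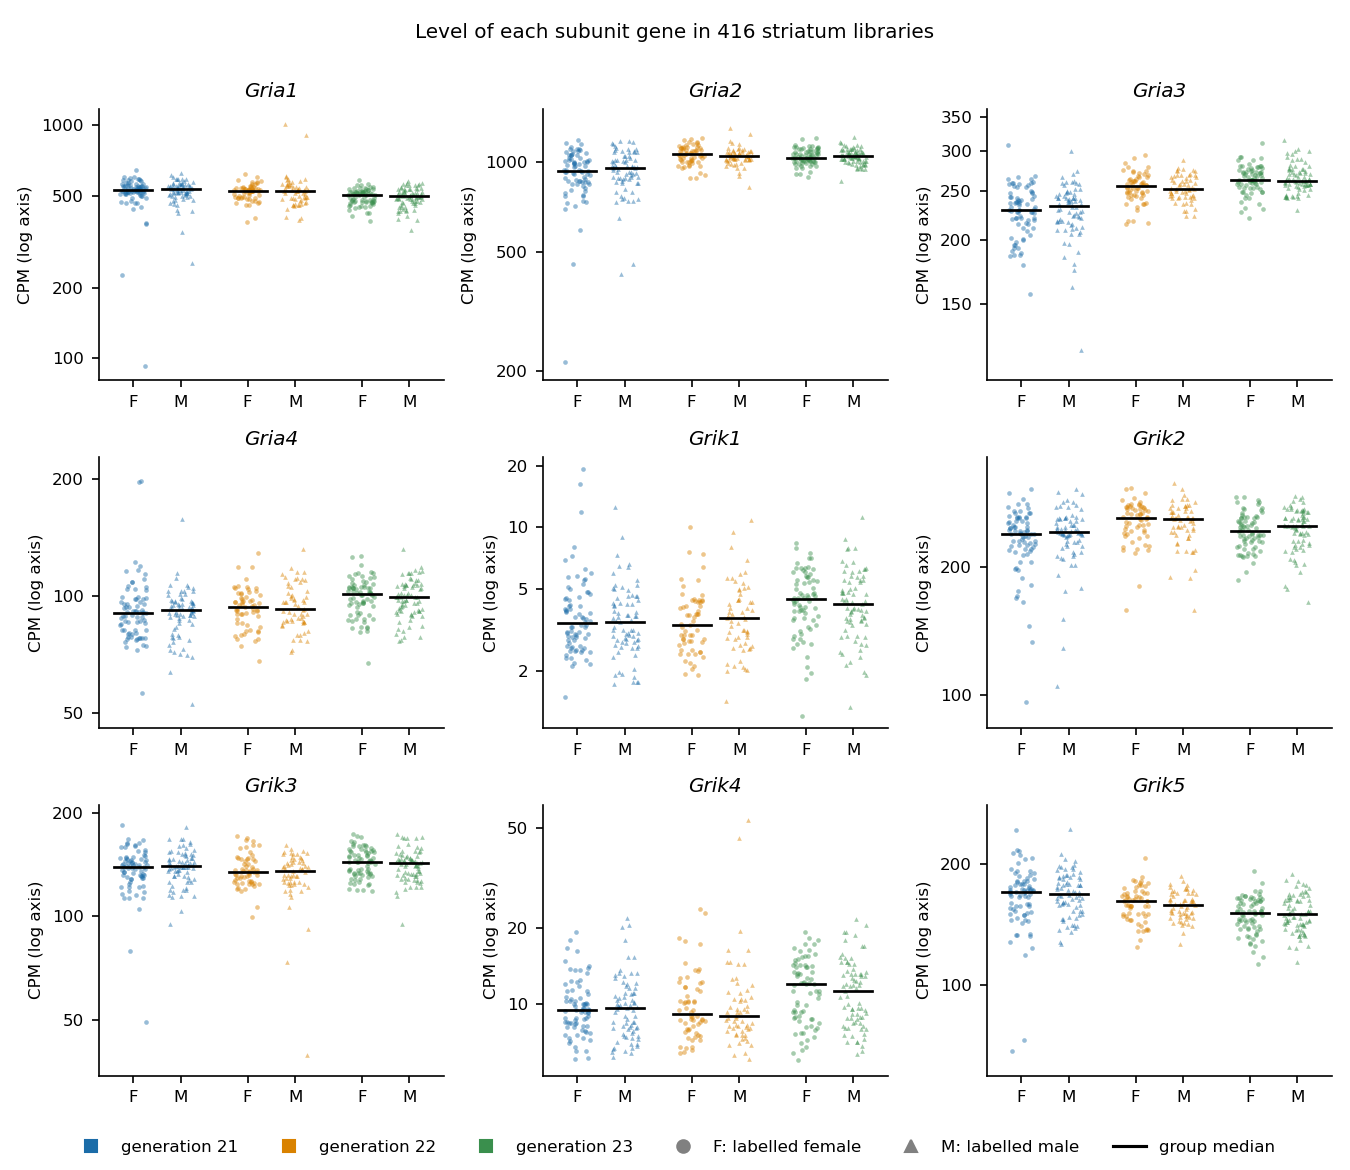
Level of each subunit gene in CPM (log axis) in every library, by generation (colours) and labelled sex (F, circles; M, triangles), with black lines at the group medians. Group ranges overlapped for every gene, Gria2 and Gria3 sat lowest in generation 21, and a few single libraries lay far outside their groups.

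Levels of different genes can be compared only per length. Per kilobase of exonic sequence, the order of the medians was Gria1 (85.4 CPM per kb), Gria2 (65.7), Grik5 (30.8), Gria3 (25.6), Grik2 (18.7), Grik3 (15.5), Gria4 (15.04), Grik4 (1.62) and Grik1 (0.56). Gria1 exceeded Gria2 in 98.8% of the libraries and Grik5 exceeded Gria3 in 87.7%. Grik3 and Gria4 did not separate, with Grik3 higher in 57.7%. Part of this order rests on the length chosen. Per kilobase of the longest protein-coding transcript, a choice added after the values were seen, Gria2 (98.5) was above Gria1 (93.1) in 71.9% of the libraries, and Gria3 (48.6) was above Grik5 (42.2). By both lengths Gria4 was higher than Grik4 at the median, and Grik4 was higher than Grik1.

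Libraries at the ends of these ranges were few, and the same ones recurred. The library labelled female, generation 21, replicate 34 had the lowest Gria1, Gria2, Grik2 and Grik5 and the highest Grik1. Its thalamic marker score, the mean log2 CPM over a list of thalamic neuron genes, was 7.69 and its spiny neuron score was 2.58, against medians of 2.85 and 8.79 over all libraries. The library labelled male, generation 22, replicate 29, whose Xist went against its label, had the highest Gria1, Gria2 and Grik4 and the lowest Grik3, with scores of 5.71 for hippocampal and 5.49 for cortical neurons. Gria3 and Gria4 were lowest in the library labelled male, generation 21, replicate 26, whose choroid plexus and ependyma score was 6.41. Gria4 was highest in the library labelled female, generation 21, replicate 1, with a thalamic score of 7.39. All 4 of these libraries stood apart. Markers of neighbouring tissue were thus high in each of them, and the part of such tissue in the subunit levels was not tested. In bulk tissue, fewer cells of a type and less RNA per cell cannot be told apart.

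No difference between the sexes was called for any subunit gene. By edgeR's quasi-likelihood test over all genes, 0 of 9 members were called at an adjusted p under 0.05, where 2.86% of all genes tested were called, and 0 of 9 had an unadjusted p under 0.05. DESeq2 and limma voom also called 0 of 9, as did the same test without the 29 libraries whose Xist went against their label. Fitted differences ran from -0.03 (Grik4) to 0.03 (Grik1) on the log2 scale, female minus male. X-linked Gria3 had a log2 difference of -0.00397 (SE 0.012, adjusted p = 0.911), with a 95% interval from -0.03 to 0.02. The interval was widest for Grik1, from -0.09 to 0.14. Median Gria3 levels were 229.7 CPM in females and 233.6 CPM in males of generation 21, 255.8 and 251.8 CPM in generation 22, and 263.002 and 261.7 CPM in generation 23. A dependence of the sex difference on generation was called for 0 of 9 members, against 0.322% of all genes, and the lowest adjusted p was 0.853, for Grik1 (0 of 9 at an unadjusted p under 0.05).

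Generation, in contrast, came with small shifts in most subunits, and the AMPA genes moved in different directions. From generation 21 to 23, Gria2 and Gria3 rose and Gria1 fell. Gria3 had medians of 231.5, 253.4 and 262.7 CPM in generations 21, 22 and 23, with ranges of 121.99 to 308.2, 214.8 to 294.7 and 221.3 to 314.5 CPM. Its level in generation 23 was 1.154-fold that in generation 21 (log2 0.21, SE 0.015, adjusted p = 7.15e-35). It rose by log2 0.15 (SE 0.015) from generation 21 to 22. The difference between 22 and 23 was 0.06 (SE 0.016, adjusted p = 0.0036), but 0.02 (adjusted p = 0.455) with 6 marker scores of other cell types in the model. Those scores are for cortical, thalamic and hippocampal neurons, oligodendrocytes, astrocytes, and choroid plexus with ependyma. Generation held 34.7% of the variance of Gria3 between libraries, against a median of 2.55% over the genes tested.

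Gria2 had medians of 943.4, 1048 and 1038 CPM, with ranges of 214.6 to 1177, 821.9 to 1297 and 860.0 to 1205 CPM. It rose by log2 0.18 (SE 0.022, adjusted p = 3.16e-13) from generation 21 to 22 and differed by only -0.01 (SE 0.022, adjusted p = 0.783) between 22 and 23. Its spread was also wider in generation 21, where the coefficient of variation was 16.3%, than in generations 22 (7.03%) and 23 (5.83%). Gria1 had medians of 528.9, 524.4 and 497.0 CPM. It fell by log2 0.08 (SE 0.022, adjusted p = 8.66e-04) from generation 21 to 23 and showed a difference of 0.00437 (SE 0.023) between 21 and 22. Between 22 and 23 the difference was -0.08 (SE 0.023, adjusted p = 0.00526), and -0.03, no longer called, with the 6 marker scores in the model. Markers of spiny projection neurons moved with Gria1. In generation 23 against 21, 8 of 13 were lower (32.6% of all genes) and 0 higher (25.8%), with a median log2 difference of -0.12. These markers are not among the 6 scores, and their part in the fall of Gria1 was not tested. Gria4, with medians of 90.9, 93.5 and 99.6 CPM, rose by log2 0.11 (SE 0.024, adjusted p = 2.8e-05) from generation 21 to 23. Between 22 and 23 its difference of 0.08 (SE 0.025, adjusted p = 0.021) was 0.02 (adjusted p = 0.571) with the 6 marker scores.

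In the fit with sex and generation alone, over all libraries, Grik5 fell and the other kainate genes rose or were not called. Grik5 had medians of 169.9, 158.7 and 150.3 CPM, with ranges of 68.9 to 243.4, 124.7 to 206.4 and 112.9 to 191.3 CPM. It fell in every pair of generations, by log2 0.08 (SE 0.022) from 21 to 22, by 0.08 (SE 0.022) from 22 to 23 and by 0.16 (SE 0.020, adjusted p = 2.41e-13) from 21 to 23. Grik2 was highest in generation 22, with medians of 239.99, 259.7 and 247.9 CPM, and rose by log2 0.11 (SE 0.024, adjusted p = 2.54e-05) from 21 to 22. Its rise from 21 to 23 was 0.05 (SE 0.022, adjusted p = 0.0353), and without the library labelled female, generation 21, replicate 34 it was 0.04 (adjusted p = 0.0595). Without the 29 libraries that stood apart it was 0.02 (adjusted p = 0.237). In the fit over all libraries without marker scores, Grik3 was called only between generations 22 and 23. This difference was log2 0.08 (SE 0.023, adjusted p = 0.00612), and 0.03 (adjusted p = 0.363) with the 6 marker scores. Its difference from 21 to 22 was log2 -0.04 (adjusted p = 0.147). That fall was called with the 6 marker scores, and also without the library labelled female, generation 21, replicate 34. Over all alternatives its lowest value was log2 -0.11.

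The scarce subunits Grik4 and Grik1 had their largest medians in generation 23. Grik4 was at 9.504, 8.98 and 11.5 CPM and rose by log2 0.20 (SE 0.054, adjusted p = 5.19e-04) from generation 21 to 23. Grik1 was at 3.45, 3.51 and 4.36 CPM and rose by log2 0.18 (SE 0.068, adjusted p = 0.0149) over the same generations, with a difference of 0.24 (SE 0.072, adjusted p = 0.0106) between 22 and 23 that was 0.02 (adjusted p = 0.90) with the 6 marker scores. Without the libraries apart the rise of Grik1 from 21 to 23 was 0.29, and the difference in Grik4 between 22 and 23, 0.12 and not called over all libraries, was 0.20 (adjusted p = 0.00136). Markers of cortical excitatory neurons moved with both: 9 of 10 of these were higher in generation 23 than in 21, and 0 were lower. Their summed level ran from 70.4 to 872.5 CPM with a median of 102.5 in generation 21. In generation 23 it ran from 71.6 to 951.1 CPM with a median of 247.2. In generation 21, 2 of these markers were at 0 in some library. Of 10 markers of GABA interneurons, 4 were higher and 2 lower in generation 23 than in 21. For both marker lists these counts stand beside 25.8% of all genes called higher and 32.6% called lower. Compared with generation 22, 6 interneuron markers were higher (8.53% of all genes) and 0 lower (9.63%). Interneuron markers are not among the 6 scores, and their part was not tested. With the 6 marker scores in the model, the difference between 21 and 23 in Grik4 turned to log2 -0.16 (adjusted p = 5.87e-06) and that in Grik1 to -0.01 (adjusted p = 0.837). In the same model the rise of Gria3 was log2 0.14, that of Gria2 was 0.14 and the fall of Grik5 was -0.18, all still called, and the difference in Grik3 turned to -0.08 (adjusted p = 7.46e-04).

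In all, 4 of 9 members were called between generations 22 and 21, a share near the 46.6% of all genes that were called there. Of these, 3 were higher (22.1% of all genes) and 1 was lower (24.5%). Between generations 23 and 21, 8 of 9 were called against 58.3% of all genes, with 6 higher (25.8%) and 2 lower (32.6%). Between generations 23 and 22, 6 of 9 were called against 18.2%, with 4 higher (8.53%) and 2 lower (9.63%). With the 6 marker scores in the model 1 of 9 was called there (Grik5), beside 1408 of 22968 genes. In the same comparison 9 of 10 cortical markers were higher and 0 lower. In libraries labelled female alone 0 of 9 were called between 23 and 22, and in those labelled male alone 1 of 9 (Gria1). Of all genes tested, 902 of 22132 were called in females alone and 1013 of 22155 in males alone. The 3 comparisons share libraries and are not independent. All of these shifts were small, and 0 of 9 members passed a test against a fold of 1.2 in any of the 3. Without the 29 libraries that stood apart, 6, 7 and 8 members were called in the same order, beside 9790, 13026 and 5026 of 22904 genes. The difference of Gria1 between generations 22 and 21 became -0.04 without them (SE 0.015, adjusted p = 0.0436). The difference of Gria4 there rose from 0.03 (adjusted p = 0.322) to 0.06 (adjusted p = 0.0195).

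**Figure D2:**
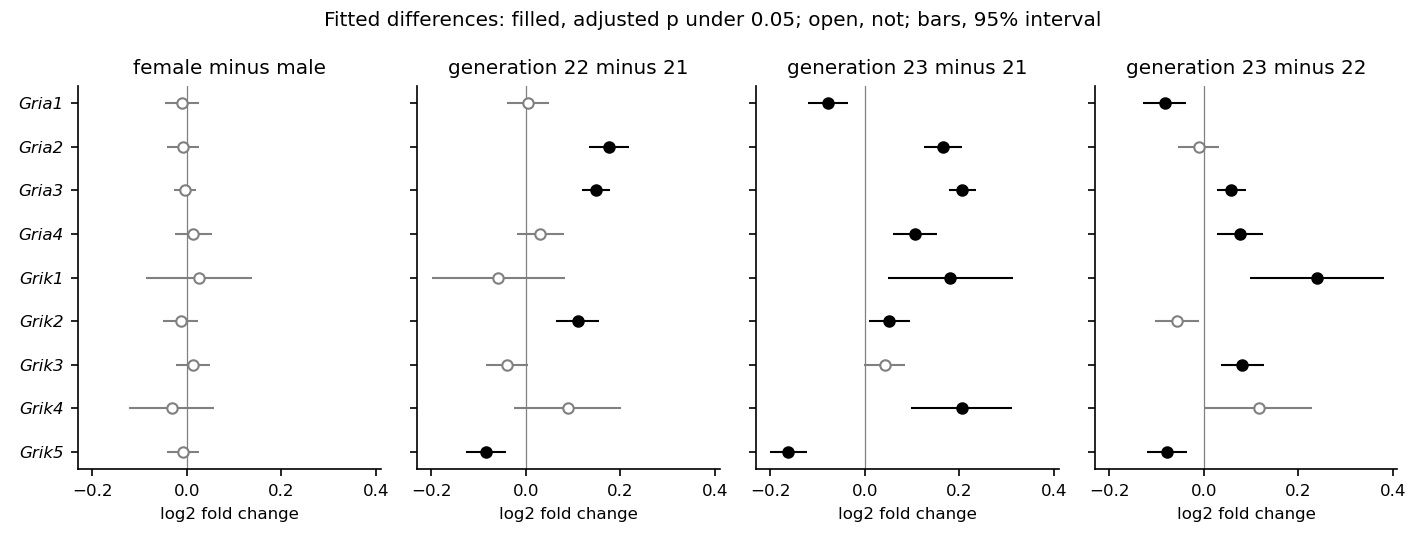
Fitted log2 fold change of each subunit gene for sex and for the 3 pairs of generations, with bars for the 95% interval and filled points for an adjusted p under 0.05. All 9 points for sex were open, while Gria2, Gria3 and Grik5 lay farthest from 0 relative to their intervals in the comparison of generations 23 and 21.

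The shares of the subunits within each receptor family need no scaling between libraries. From exonic-length-corrected levels, Gria1 made up 44.2% of the summed AMPA subunit transcripts in the median library, Gria2 34.5%, Gria3 13.2% and Gria4 7.84%. Of the kainate sum, Grik5 took 45.8%, Grik2 27.9%, Grik3 22.8%, Grik4 2.402% and Grik1 0.835%. Per length of the longest coding transcript the AMPA shares became 35.8% for Gria1 and 38.4% for Gria2, so the size of a share depends on the length used.

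The Gria1 share fell from 46.8% ± 4.51 (mean ± SD over the libraries of a generation) in generation 21 to 44.3% ± 2.92 in generation 22 and 42.7% ± 2.20 in generation 23. The Gria2 share rose from 32.3% ± 3.03 to 34.7% ± 1.59 and was 35.02% ± 1.22 in generation 23, and the Gria3 share rose from 12.7% ± 1.67 to 13.3% ± 1.08 and 14.1% ± 1.05. The Gria4 share was 8.15% ± 3.22, 7.72% ± 1.12 and 8.26% ± 1.04, and of its 3 pairs of generations only the last step was called (adjusted p = 1.56e-04). Among the kainate subunits, the Grik5 share fell from 47.7% ± 3.65 to 45.6% ± 2.65 and 43.99% ± 2.73. The Grik2 share was 26.3% ± 3.86, 28.6% ± 3.02 and 27.98% ± 2.89, lowest in generation 21. The differences between generations 23 and 21 in the shares of Gria1, Gria2, Gria3, Grik2, Grik3 and Grik5 each had a permutation p of 1e-05, the smallest that 100000 resamples can give, and an adjusted p of 2.86e-05 over 40 tests.

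In total 20 of the 40 permutation tests on shares and on the ratio of the families were called, and none of them was among the 10 for sex. The shares of a family add up to a fixed total in each library, and the pairs of generations share libraries. These tests are therefore not independent of each other. The log2 ratio of the kainate to the AMPA sum was -1.43 ± 0.160 in generation 21, -1.53 ± 0.136 in generation 22 and -1.53 ± 0.0973 in generation 23. It fell between generations 21 and 22 (adjusted p = 2.86e-05) and did not differ beyond the spread between 22 and 23 (difference -0.00325, adjusted p = 0.867). Single libraries lay far out. The Gria4 share reached 38.8% in the library labelled female, generation 21, replicate 34. The Grik4 share reached 16.1% in the library labelled male, generation 22, replicate 29. Both of these libraries stood apart. Over all 416 libraries the interquartile range was 7.24% to 8.54% for the Gria4 share and 2.02% to 3.16% for the Grik4 share.

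**Figure D3:**
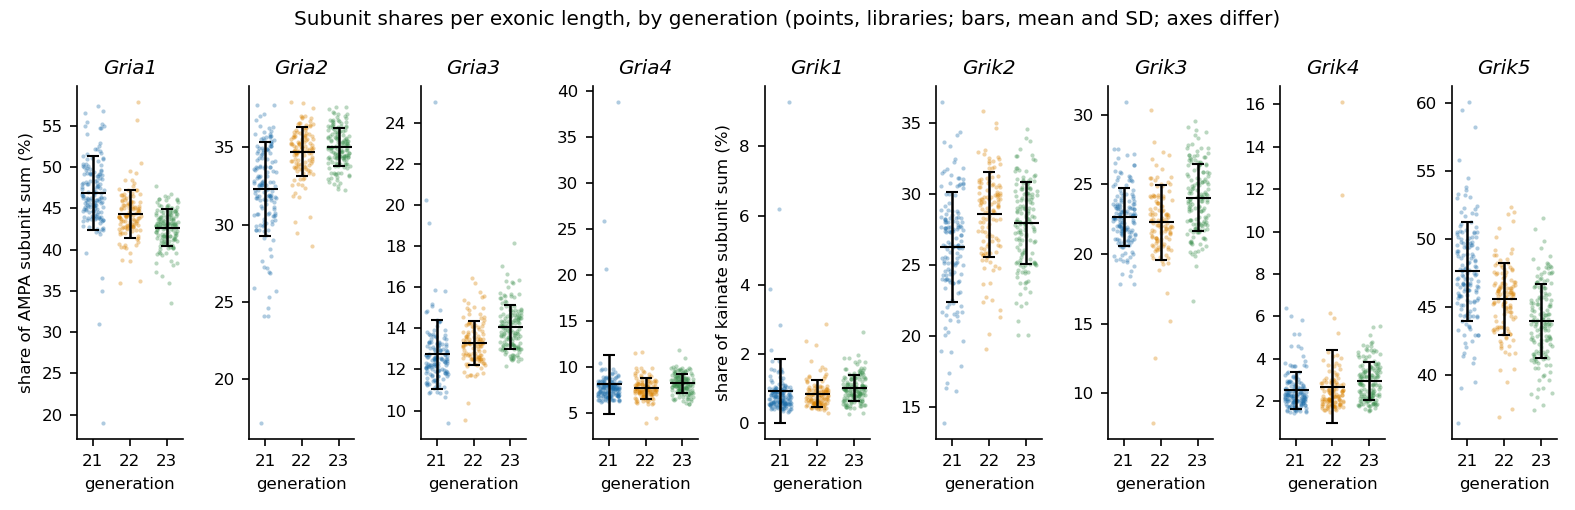
Share of each subunit in the length-corrected sum of its family, in percent, for every library by generation, with the mean and SD in black (axes differ between panels). Mean Gria1 and Grik5 shares fell and mean Gria2 and Gria3 shares rose from generation 21 to 23.

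AMPA and kainate receptors work with auxiliary and anchoring proteins, and 49 genes around them were listed. These were 23 auxiliary AMPA proteins, 4 kainate partners, 17 scaffold and trafficking proteins, 3 genes of an RNA-editing list and the 2 delta receptors. Between the sexes 1 of 49 was called, where 2.86% of all genes were. The count was 7 without the 29 libraries apart and 3 without those against their sex label. It was 2 without either of the libraries labelled female, generation 21, replicate 34 and male, generation 22, replicate 29. Over all genes, 1351 of 22904, 1094 of 23024, 585 of 22963 and 695 of 22982 were called in the same order. The gene called over all libraries was Abhd6, an enzyme that restrains AMPA receptor delivery to the surface, with a log2 difference of 0.06 (SE 0.017, adjusted p = 0.0363). Between generations 22 and 21, 12 of 49 were higher and 14 lower, with a median log2 difference of -0.00787 (-0.00794 over all genes tested). Between generations 23 and 21, 17 were higher and 20 lower, with a median of -0.02 (-0.02 over all genes). Between generations 23 and 22, 12 were higher and 11 lower, with a median of -0.00383 (-0.00738 over all genes). These counts stand beside 46.6%, 58.3% and 18.2% of all genes called in the same comparisons. By list, 6 auxiliary AMPA proteins were higher and 12 lower in generation 23 than in 21, as were 2 and 1 of the kainate partners, 9 and 3 of the scaffold and trafficking proteins and 0 and 1 of the delta receptors. All 3 genes of the RNA-editing list were lower over these generations, a count that rests on libraries that stood apart for Adarb1 and Adarb2.

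Secreted and synaptic proteins were among the listed genes with the largest rises. Nptx1, a secreted pentraxin that gathers AMPA receptors, rose by log2 0.85 (SE 0.10, adjusted p = 1.68e-14) from generation 21 to 23 and by 0.38 (SE 0.11) from 21 to 22. C1ql3, a secreted C1q-like protein, rose by log2 0.64 (SE 0.14), Olfm1, an extracellular olfactomedin, by 0.47 (SE 0.088) and Cnih3, a cornichon that slows AMPA receptor closing, by 0.41 (SE 0.11) from 21 to 23. Lrrtm2, a postsynaptic adhesion protein, rose by log2 0.17 (SE 0.023), Neto2, an auxiliary kainate subunit, by 0.15 (SE 0.033) and Olfm3 by 0.14 (SE 0.045) from 21 to 22. The rises of Nptx1, C1ql3, Cnih3 and Olfm1 from 21 to 23 stood at log2 0.86, 1.01, 0.66 and 0.62 without the libraries apart. From 22 to 23 the same genes rose by log2 0.47 for Nptx1, 0.50 for C1ql3, 0.38 for Cnih3 and 0.38 for Olfm1. Cortical markers rose over the same generations, as given above, and their part in these rises was not tested.

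Several falls among the listed genes rested on libraries that stood apart. Shisa8, an auxiliary AMPA protein, fell by log2 0.39 (SE 0.066, adjusted p = 2.97e-08) from generation 21 to 23 and by 0.42 without those libraries, and it fell by 0.33 (SE 0.069) from 21 to 22. Cacng5, a TARP auxiliary subunit, fell by log2 0.35 (SE 0.056) from 21 to 22 and by 0.22 (SE 0.053) from 21 to 23, and without those libraries the differences were -0.20 and -0.07 (adjusted p = 0.1515 for the latter). The editing enzyme Adarb1 fell by log2 0.23 (SE 0.051, adjusted p = 5.31e-05) from 21 to 22, and its relative Adarb2 by 0.21 (SE 0.050) from 21 to 23. Without the libraries apart these became -0.02 (adjusted p = 0.396) and -0.04 (adjusted p = 0.2725), neither called, and without the library labelled female, generation 21, replicate 34 alone they were -0.14 and -0.15, both called. Cacng7 fell by log2 0.15 (SE 0.026) from 21 to 22 and by 0.10 without them. C1ql2, which is also on the list of hippocampal markers, fell by log2 0.42 (SE 0.13) from generation 21 to 23, and by 0.23 without them. Its difference of -0.49 between generations 23 and 22 became 0.01 (adjusted p = 0.941) without them. Between generations 22 and 23, Akap5, a kinase anchor, fell by log2 0.12, Lrrtm1 by 0.10 and Shisa9 by 0.09, and all 3 were also called without these libraries.

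Across libraries the 9 genes did not vary as a block. After removal of sex and generation, 28 of 36 pairs had a called correlation of log2 CPM, 17 of them positive and 11 negative, with a median r of 0.06 over all 36. Pairs called at a p of 1e-05 had the smallest value that 100000 permutations can give. The points share depth, scaling and tissue, and adjustment was over the 36 pairs. Gria2 and Grik2 were the most alike pair, with r = 0.65 and rho = 0.52 (permutation p = 1e-05), r = 0.56 without the 2 farthest libraries and r = 0.84, 0.21 and 0.30 within generations 21, 22 and 23. Gria2 and Gria3 had r = 0.53 and rho = 0.46 (permutation p = 1e-05), 0.52 without the 2 farthest, and 0.62, 0.37 and 0.14 within generations. Gria3 and Gria4 were also positively related within every generation, with r = 0.45, rho = 0.41 (permutation p = 1e-05), 0.39 without the 2 farthest, and 0.47, 0.40 and 0.46 within generations.

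Gria1 and Gria2, the main AMPA pair, had r = 0.64 and rho = 0.34 (permutation p = 1e-05), and much of it rested on few libraries. It was 0.41 without the 2 farthest and 0.19 without the 29 that stood apart, and 0.70, 0.52 and 0.50 within generations 21, 22 and 23. Gria1 and Gria4 ran opposite, with r = -0.41 and rho = -0.19 (permutation p = 1e-05 and 7e-05), -0.24 without the 2 farthest and -0.18 without those apart. Within generations 21, 22 and 23 this r was -0.48, -0.29 and -0.36.

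Among the kainate genes, the scarce subunits Grik1 and Grik4 rose and fell together (r = 0.59, rho = 0.56, permutation p = 1e-05), with r = 0.60 without the 2 farthest and 0.45, 0.68 and 0.66 within generations. Grik2 ran opposite to both. For Grik2 and Grik4 r was -0.60 and rho -0.59 (permutation p = 1e-05), with -0.63 without the 2 farthest and -0.50, -0.73 and -0.73 within generations. For Grik1 and Grik2 r was -0.57 and rho -0.47 (permutation p = 1e-05), with -0.53 without the 2 farthest and -0.58, -0.61 and -0.54 within generations. With the 6 marker scores removed as well, r was 0.14 for Grik1 and Grik4, -0.27 for Grik2 and Grik4 and -0.19 for Grik1 and Grik2.

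Correlations of Grik3 changed sign between generations for several partners. With Gria1 its r was 0.03 and its rho -0.24 (permutation p = 0.531 and 1e-05), and r was -0.36 without the 2 farthest libraries. Without the libraries apart this r was -0.25. Within generations 21, 22 and 23, with those libraries kept, it was 0.55, -0.65 and -0.43. Generation 21 holds the library with the lowest Gria1, and generation 22 the one with the highest Gria1 and lowest Grik3. Their part in the change of sign was not tested. With Grik4 its r was 0.19 and its rho 0.49 (permutation p = 0.00128 and 1e-05), with 0.39 without the 2 farthest, 0.52 without those apart, and 0.19, -0.15 and 0.71 within generations.

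**Figure D4:**
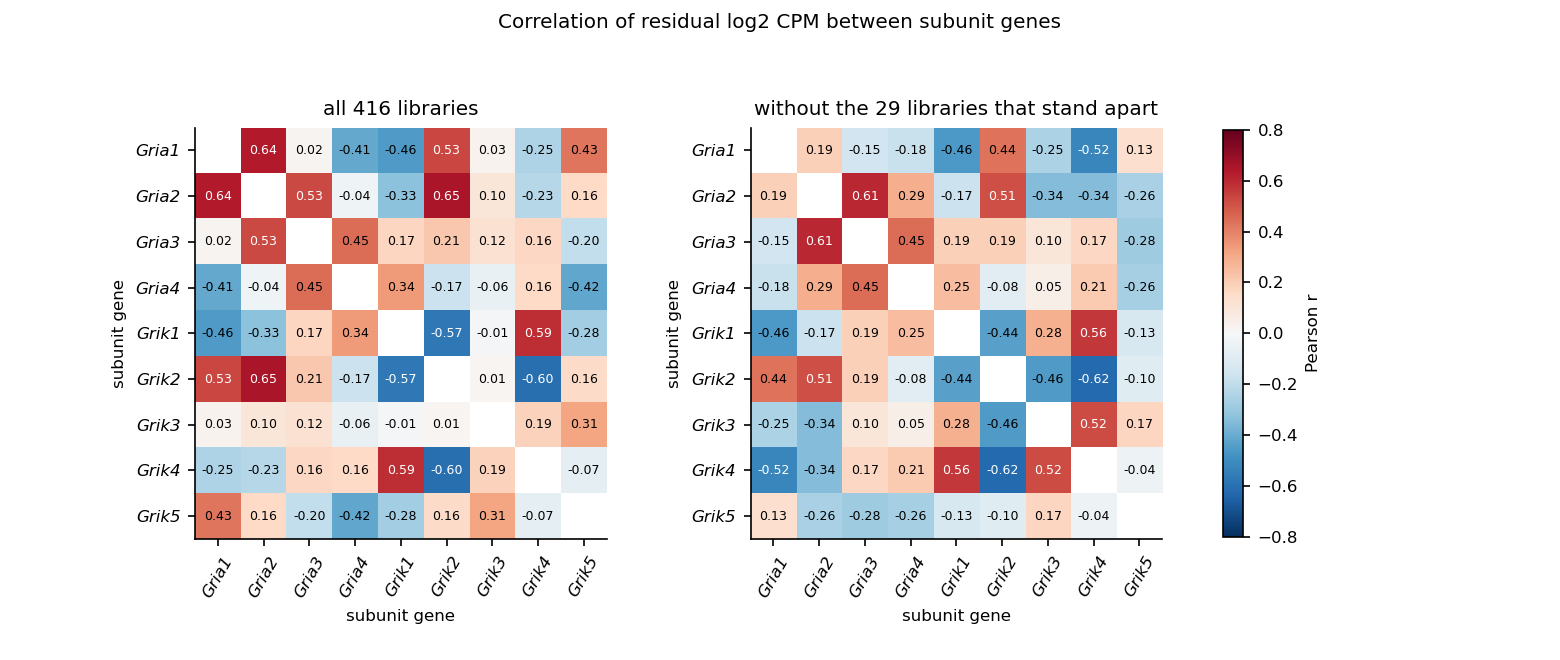
Pearson r of residual log2 CPM for each pair of subunit genes over all 416 libraries (left) and over those left after removal of the 29 that stood apart (right), on a scale from blue (negative) to red (positive). Gria1 with Gria2 changed from 0.64 to 0.19, whereas Grik2 with Grik4 was -0.60 and -0.62.

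Marker scores of other cell types moved with several subunits. As a description over libraries, with sex and generation removed, Grik4 had r = 0.82 with the cortical neuron score (rho 0.81, and 0.82 without the libraries apart). Grik1 had r = 0.62 with it. With the GABA interneuron score r was 0.70 for Grik4 and 0.60 for Grik1. Grik1 further had r = 0.53 with the thalamic score and -0.58 with the spiny neuron score. Grik2 had r = -0.57 with the cortical score, -0.56 with the GABA interneuron score and 0.70 with the spiny neuron score. Gria1 also followed the spiny neuron score, with r = 0.67 (0.60 without the libraries apart), while Gria4 ran with the thalamic score (r = 0.41, and 0.22 without them). Among these scores Gria3 had its largest r, in size, with the score of choroid plexus and ependyma, at -0.44 (-0.38 without them). Grik3 had r = 0.40 with the spiny neuron score over all libraries and -0.28 without those apart. All points share scaling to a common total, and no cause was tested.

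Added after sex and generation, the 6 marker scores together held 66.97% of the total variance of Grik4 between libraries and 51.2% of Grik1. They held 49.6% of Grik2 and 46.8% of Gria1, against a median of 8.48% over the genes tested. Shares were lower for Grik3 (37.04%), Gria2 (32.3%), Gria4 (27.01%), Gria3 (19.8%) and Grik5 (16.1%). Gria3 was the member with most variance along generation, and Grik5 the one with least along these 6 scores. Scores of spiny neurons and interneurons are not among them.

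**Figure D5:**
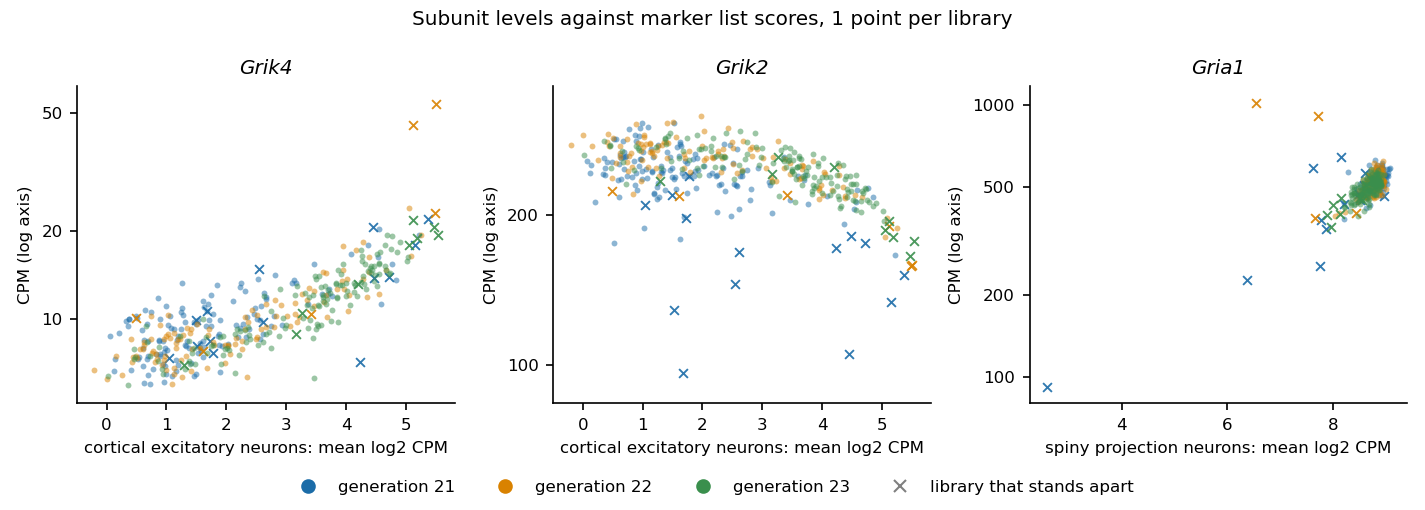
CPM (log axis) of Grik4 and Grik2 against the cortical neuron score and of Gria1 against the spiny neuron score, 1 point per library, coloured by generation, with crosses for libraries that stood apart. Grik4 rises with the cortical score over the whole range, Grik2 is lower at the highest scores, and 1 library with a spiny neuron score of 2.58 has the lowest Gria1.

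The genes most like each member were sought among 12533 named genes that passed a minimum of 1 for mean log2 CPM, by Pearson r of residual log2 CPM over the 416 libraries. Gria2 lay near Scn2a (r = 0.88) and Cnksr2 (0.88), and Grik2 near Alcam (0.88), Grm5 (0.87) and Csmd3 (0.87). Grik4 lay nearest to Nptx1 (0.86), Ncald (0.85) and Cadps2 (0.83), and Gria1 to Scn3b (0.83), Cacna1e (0.80) and Ddn (0.80). Gria3 lay nearest to Ttc3 (0.77), Pafah1b1 (0.75) and Ppp3cb (0.74), Grik5 to Phyhip (0.76), Mef2d (0.73) and Strn4 (0.73), and Grik1 to Slc8a1 (0.74), Dscam (0.73) and Mast1 (0.72). Gria4 had weaker matches in Ttbk2 (0.67), Gabrb2 (0.66) and Ptpn4 (0.63), and Grik3 in Ier5 (0.59) and Phf24 (0.56). No member was among the 3 genes most like another member. These values are descriptions over libraries that share depth, scaling and tissue. They include the 29 libraries that stood apart and were not recomputed without them, so how far they rest on those libraries was not tested.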

How the data were processed

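Striatal RNA from 416 mice was sequenced after ribosomal depletion with a stranded kit, per the labels' protocols. The authors deposited 1 table of estimated counts per gene, of which 23.8% are not whole numbers. The aligner, counter and genome build are not given in the sources used here. Values were rounded (0.005% of the total moved), 46005 of 46517 IDs were named from GENCODE M21 (GRCm38), and 22968 genes passed edgeR's filterByExpr (minimum count 10). Total counts, which set the precision, ran from 20331737 to 77458200. Groups are labelled sex and generation.

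The test was edgeR 4.0.16's quasi-likelihood test on TMM-scaled counts with sex and generation as terms (R 4.3.3), with Benjamini-Hochberg adjustment over all genes tested at 0.05, and intervals are 1.96 SE. Sex by generation was tested in a second model. Shares and pair correlations used permutation tests (SciPy 1.17.1, 100000 resamples), within sex and generation for pairs. Libraries stood apart where the total was under 0.5 of the median or the correlation with the others was over 4 scaled MADs low. Alternatives were other scaling (RLE), no filter or a mean of 1 CPM, a test against a fold of 1.2, added covariates, left-out libraries, single sexes and single generations, limma 3.58.1 voom and DESeq2 1.42.0. The fit was also run on simulated independent counts. These held no outlying libraries or tissue mixture, so that run does not test the fit on such features. The text names all members, per comparison up to 4 called listed genes a direction by size, and, of the 3 genes most like each member, all but a few that are not reported here. Members and lists were chosen with earlier results of these data known. P-values rest on the spread between libraries, which the tests take as independent. Spread between batches or litters was not measured.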

Additional observations from a re-analysis of the deposited data

Results flagged for a closer look

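In 4 of the 49 listed genes a dependence of the sex difference on generation was called, by edgeR's quasi-likelihood test of the interaction. They were Shisa6 (adjusted p = 0.000351), C1ql2 (0.000241), Nptxr (0.00162) and C1ql3 (0.0255). Of all genes tested 0.322% were called in this test, and limma voom called 0 of 22968. Shisa6 encodes an auxiliary AMPA receptor protein, C1ql2 and C1ql3 encode secreted C1q-like proteins that bind kainate receptors, and Nptxr encodes the neuronal pentraxin receptor. The library labelled male, generation 22, replicate 29 was the highest of its group in all 4, with Shisa6 at 186.6 CPM (group median 7.17), C1ql2 at 17.1 (0.483), C1ql3 at 70.8 (3.16) and Nptxr at 780.1 (57.1). Without that library the adjusted p was 0.154 for Shisa6, 0.118 for C1ql2, 0.25 for C1ql3 and 0.0341 for Nptxr. Without the 29 libraries that stood apart it was 0.92, 0.954, 0.91 and 0.846 in the same order. That library also went against its sex label and had the highest hippocampal neuron score, 5.71, and the part of such tissue in these 4 genes was not tested.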

How the results depend on the processing

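Of the recomputed counts of called members, pairs and shares, 76 stayed within 1.5 times the reported count and 8 moved. Tested against a fold of 1.2, 0 members were called between generations 22 and 21, 0 between 23 and 21 and 0 between 23 and 22. In females alone 5 were called between 23 and 21 and 0 between 23 and 22, and in males alone 1 between 23 and 22. Over all genes these counts were 10018 and 902 of 22132 in females alone, and 1013 of 22155 in males alone. With the 6 marker scores as covariates 1 was called between 23 and 22, beside 1408 of 22968 genes. In generation 22 alone 12 pairs were called. Single libraries left out were the one farthest from the fit in each member and, added after the data were seen, female generation 21 replicate 34 and male generation 22 replicate 29, which gave 0 for sex and for the interaction, 4 to 5 for generations 22 and 21, 7 to 8 for 23 and 21 and 6 to 8 for 23 and 22.

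Of the recomputed member differences 43 were no longer called, 11 became called and 5 turned sign with a call before or after (sign changes between values that were not called are not counted, here and for the correlations). Gria1 between generations 22 and 21 was -0.0362 without the libraries apart. With the marker scores Grik4 was -0.0715 between 22 and 21 and -0.162 between 23 and 21, where Grik1 was -0.014 and Grik3 -0.0758. Of the recomputed correlations 33 turned sign with a call before or after. In generation 21 these were Gria3 with Grik3 (-0.0291), Gria3 with Grik4 (-0.1352) and Gria4 with Grik4 (-0.037). In generation 22 alone they were Gria1 with Grik3 (-0.6461), Gria1 with Grik4 (0.0463), Gria2 with Grik3 (-0.3362), Gria3 with Grik2 (-0.1654), Gria4 with Grik3 (0.3118) and Grik3 with Grik4 (-0.1489). In generation 23 alone they were Gria1 with Gria3 (-0.2631), Gria1 with Grik3 (-0.4268), Gria2 with Grik3 (-0.2793), Gria3 with Grik2 (-0.3427), Gria4 with Grik3 (0.4265), Grik1 with Grik3 (0.4455), Grik2 with Grik3 (-0.519) and Grik3 with Grik5 (-0.0552). With the marker scores removed they were Gria1 with Grik4 (0.0112), Gria2 with Gria4 (0.1684), Gria2 with Grik5 (-0.1191), Gria3 with Grik3 (-0.0655), Gria3 with Grik4 (-0.0789), Gria4 with Grik2 (0.0212), Gria4 with Grik4 (-0.0016) and Grik2 with Grik5 (-0.112). Without the libraries apart they were Gria1 with Gria3 (-0.1542), Gria1 with Grik3 (-0.2512), Gria2 with Gria4 (0.2887), Gria2 with Grik3 (-0.344), Gria2 with Grik5 (-0.2593), Grik1 with Grik3 (0.2823), Grik2 with Grik3 (-0.4556) and Grik2 with Grik5 (-0.0981). The cause was not tested. Of the recomputed share tests 8 became called, 1 was no longer called and none turned sign with a call before or after. No paired analysis was possible because replicate numbers follow accession order only. Grik1 and Grik4 rest on the fewest counts of the members, which limits their precision.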
